A study of Mus musculus with 27 samples.

Results

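The control group of a study of fetal mouse lung is described here by itself, as the baseline against which fetuses from transferred embryos were set. Its members were taken by title, which gave 9 of the 27 Illumina bead arrays. They are 3 pools of RNA from the left lung lobe, each hybridised to 3 technical arrays. The labels give all 3 pools as male C57BL/6 X BALBc fetuses at day 18 of gestation that developed in vivo in naturally ovulating females, with no transfer and no culture. The other 18 arrays came from fetuses of the same strain, sex and day that grew from blastocysts moved into pseudo-pregnant females, derived in vitro (EG in vitro) or in vivo (EG in vivo), and enter here in the joint normalization of all arrays and in 1 check of the pools. How many fetuses a pool held, and whether pools came from separate litters, the labels do not say, so the spread between pools may be partly technical.

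At this age the mouse lung is in its saccular stage: branching has ended, the air spaces widen, their walls thin, and the epithelium of the future alveoli parts into flat type I cells, which form the gas exchange surface, and cuboidal type II cells, which make surfactant. Club and ciliated cells line the airways. Fibroblasts lay down elastin and collagen, a capillary bed grows against the epithelium, and the blood inside the lobe leaves the RNA of red cells in any extract.

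The promoters of 6 genes are given as examples and need not be typical of their lists. The genes are the adult beta globins Hbb-bs and Hbb-bt, both among the 10 brightest genes, and the embryonic globin Hbb-y, which was far dimmer. With them are 3 secreted products of the distal lung epithelium, Sftpa1, Sftpb and Cxcl15. Each promoter is the 150 bases before the transcription start in the RefSeq table (GRCm38.p6), 5′ to 3′ on the gene's strand. Capitals stand at every match, on either strand, to 4 motifs. These are TATAA, the core of the TATA box, then CCAAT, the letters of the CCAAT box, then GGGCGG, the GC box, and CTCAAG, the core letters of a site for the lung factor Nkx2-1.
Hbb-bs, chr7:103827929-103828078, minus strand: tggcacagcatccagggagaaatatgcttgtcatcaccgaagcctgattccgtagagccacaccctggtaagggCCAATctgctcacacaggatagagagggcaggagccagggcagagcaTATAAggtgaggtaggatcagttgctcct
Hbb-bt, chr7:103813924-103814073, minus strand: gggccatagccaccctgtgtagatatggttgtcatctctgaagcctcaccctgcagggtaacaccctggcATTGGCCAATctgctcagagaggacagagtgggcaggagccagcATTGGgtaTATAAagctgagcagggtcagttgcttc
Hbb-y, chr7:103853208-103853357, minus strand: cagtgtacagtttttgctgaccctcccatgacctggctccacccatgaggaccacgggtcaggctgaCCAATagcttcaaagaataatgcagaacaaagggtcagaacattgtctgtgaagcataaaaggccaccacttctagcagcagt
Sftpa1, chr14:41131638-41131787, plus strand: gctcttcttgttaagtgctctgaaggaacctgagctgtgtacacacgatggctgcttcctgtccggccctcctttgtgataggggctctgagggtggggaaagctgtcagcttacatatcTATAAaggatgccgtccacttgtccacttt
Sftpb, chr6:72304460-72304609, plus strand: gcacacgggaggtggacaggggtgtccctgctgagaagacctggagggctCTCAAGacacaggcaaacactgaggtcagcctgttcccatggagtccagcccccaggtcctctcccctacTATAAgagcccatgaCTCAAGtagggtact
Cxcl15, chr5:90794384-90794533, plus strand: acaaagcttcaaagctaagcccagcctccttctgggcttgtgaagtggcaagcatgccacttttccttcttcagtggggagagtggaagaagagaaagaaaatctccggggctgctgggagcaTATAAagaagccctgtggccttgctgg

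TATAA began 29 bases before the start in Hbb-bs, 28 in Hbb-bt, 30 in Sftpa1, 30 in Sftpb and 27 in Cxcl15, and the Hbb-y window held none. CTCAAG was in the Sftpb window, at 100 and 15 bases before the start, and in no other of the 6. Over all 32851 promoter windows of this length, TATAA, read on either strand, was in 14.2%, CCAAT (also read as ATTGG) in 24.5%, GGGCGG (also CCGCCC) in 28.6% and CTCAAG (also CTTGAG) in 7.69%. Over the 18719 windows of genes measured here, TATAA was in 11.96% and GGGCGG in 40.6%. The 93 windows of the 74 genes in the table among the 100 brightest held TATAA in 20.4% and GGGCGG in 52.7%, and the 516 windows of the 500 brightest held them in 11.6% and 54.1%. Among the windows of genes detected on all 9 arrays GGGCGG stood in 51.4%, and among those of genes detected on no array in 20.1%. TATAA went the other way, with 6.86% of windows of detected genes and 22.3% of windows of undetected genes. Olfactory receptor genes, most of them undetected, are part of both contrasts: their 914 windows held TATAA in 42.6% and GGGCGG in 0.109%. The 42 windows of the surfactant, alveolar and club cell lists held TATAA in 21.4% and CTCAAG in 9.52%. All of these are matches of letters, not measured sites.

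Each array measured 45281 probes, of which 34885 carried 1 gene symbol, and a gene's level is the log2 normalized signal of its brightest probe, averaged over technical arrays and then over pools. A probe counts as detected on an array where its detection p is under 0.05. The median raw signal of an array was 117.0 to 155.3, and 21419 to 23449 probes were detected. Pool 3 was the dimmest in raw signal (117.0 to 126.3), although it did not have fewer probes detected. Technical arrays of 1 pool correlated at 0.993 to 0.996 and arrays of different pools at 0.921 to 0.987. One pool went against its label: Xist, the noncoding RNA of X inactivation, a female trait, stood at 10.90 in pool 1, 4.71 in pool 2 and 4.60 in pool 3, and was detected on the 3 arrays of pool 1 alone. The Y-linked genes Eif2s3y (11.53, 11.27 and 10.73 in pools 1, 2 and 3), Kdm5d (9.39, 9.56 and 9.18) and Uty (7.43, 7.35 and 7.23) were detected on all 9 arrays, so pool 1 held both signals.

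The array gave 19057 named genes. Of these, 10547 (55.3%) were detected on all 9 control arrays, 2985 (15.7%) on some and 5525 (29.0%) on none. The median level was 6.42, the middle 50% of genes ran from 4.72 to 9.34, and the undetected genes lay between 4.38 and 5.04. Levels of different genes come from different probes, so their order describes signal and depends on the probe as well as on the RNA. For any gene called undetected below, absent RNA and probes that do not read it cannot be told apart. No gene was tested against another. In these bulk samples fewer cells of a type and less RNA per cell cannot be told apart.

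Protein synthesis, blood and lung secretion filled the top of the order. Hbb-bs, an adult beta globin, was the brightest gene, at 15.01, 14.99 and 15.11 in pools 1, 2 and 3. It was followed by the ribosomal proteins Rps29 (14.99 ± 0.028, SD over 3 pools, as for all values given so) and Rpl41 (14.98 ± 0.063) and by Eef1a1, the elongation factor that brings aminoacyl-tRNA to the ribosome (14.96 ± 0.039). Lyz1, a lysozyme of macrophages and secretory cells (14.93 ± 0.082), the second adult beta globin Hbb-bt (14.92 ± 0.070) and Dlk1, an imprinted membrane ligand of fetal tissue (14.91 ± 0.033), came next. The ubiquitin sequence Ubb-ps (14.89 ± 0.077), the mitochondrially encoded ND4 (14.88 ± 0.065) and Scgb1a1, the club cell secretoglobin (14.87 ± 0.13), closed the first 10. These 10 levels ran from 15.04 to 14.87, near the ceiling of 15.11 that normalization gives the brightest probe of every array.

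Ranks 11 to 30 held 12 more cytosolic ribosomal proteins, namely Rps12, Rpl37, Rpl10a, Rps24, Rpl38, Rpl23, Rpl3, Rps4x, Rps14, Rpl27a, Rplp1 and Rpl9. The other genes there were the ferritin heavy chain Fth1 (14.85 ± 0.0080), mitochondrial CYTB (14.82 ± 0.048), the caveolin Cav1 (14.81 ± 0.12), the alpha globin Hba-a1 (14.80 ± 0.092), Nrep (14.79 ± 0.084), the surfactant protein Sftpc (14.77 ± 0.11), the actin-binding thymosin Tmsb4x (14.69 ± 0.0088) and 1 gene with a model name. Cav1 coats the caveolae of endothelial and type I cells. Of the 100 brightest genes, 28 were cytosolic ribosomal proteins, 9 were in the housekeeping and glycolysis lists, 6 in the epithelial lists, 6 in the matrix lists, 5 were encoded in mitochondrial DNA, 3 were globins and 35 were in none of the lists or families. The 100 brightest genes carried 14.8% ± 0.082 of the summed signal of all genes and the 500 brightest 37.0% ± 0.20. Quantile normalization gives every array the same distribution of probe signals, so these shares and their small SDs are largely set by it. The ribosomal proteins alone made up 5.50% ± 0.012, the epithelial lists 2.55% ± 0.16, the matrix lists 2.28% ± 0.19 and the globin and erythroid lists 0.790% ± 0.037. The 3 pools shared 79 of their 100 brightest genes, with 93 in common between pools 1 and 2, 84 between pools 1 and 3 and 83 between pools 2 and 3.

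**Figure D1:**
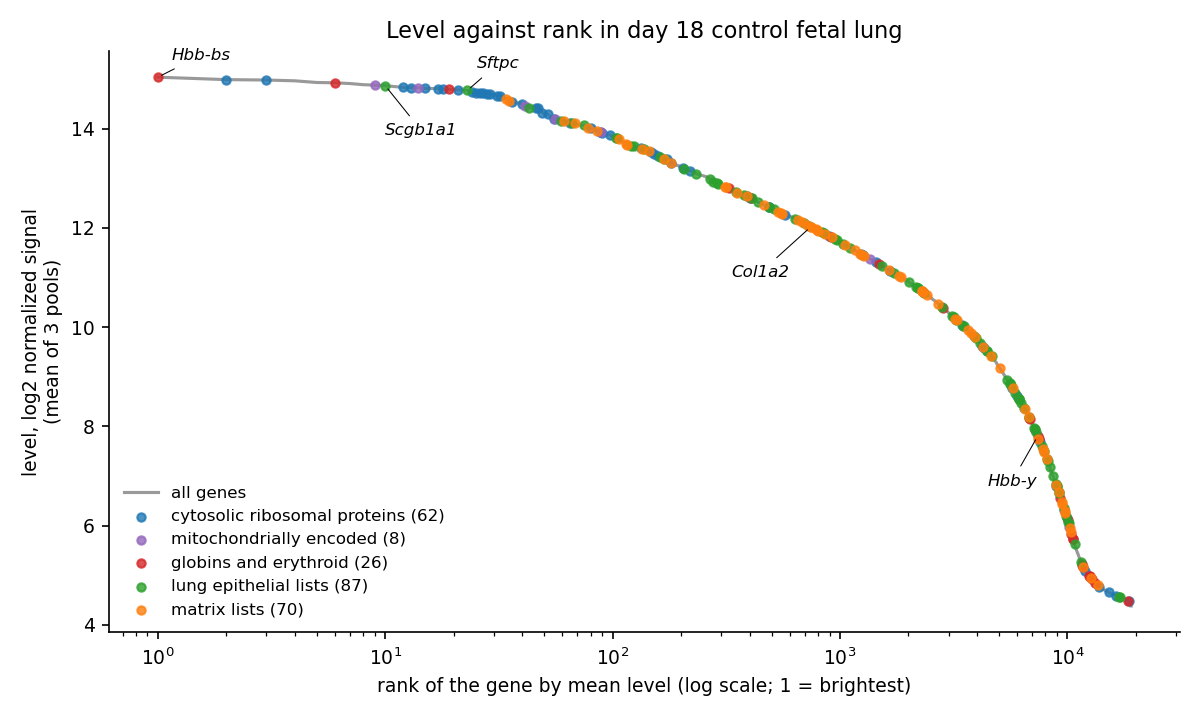
Level (log2 normalized signal, mean of 3 pools) of each of the 19057 genes against its rank on a log axis, as a grey line, with members of 5 classes as coloured points. Ribosomal proteins crowd the flat top from rank 2 on, Hbb-bs opens the order at 15.04, Scgb1a1 is at rank 10 and Sftpc at rank 23, while Hbb-y lies at 7.80.

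Surfactant lowers surface tension in the air spaces, and its 4 proteins were all detected on all 9 arrays, with a median level of 13.11, at the 98.4th percentile of all genes (the 100th is the brightest). Sftpc, the hydrophobic protein made by type II cells alone, read 14.83, 14.84 and 14.65 in pools 1, 2 and 3. Sftpd, a collectin of innate defence, read 13.62, 13.90 and 13.89. The second hydrophobic protein, Sftpb, read 12.16 in pools 1 and 2 and 12.92 in pool 3, and the collectin Sftpa1 read 12.20, 12.69 and 12.27. The 4 proteins kept to the upper 3% of genes in the mean. Pool 2 was the highest for Sftpa1 and pool 3 for Sftpb. Pools 1 and 2 were nearly level for Sftpc, as were pools 2 and 3 for Sftpd.

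Of type II cell genes beyond the surfactant proteins, 19 of 20 were detected on all 9 arrays, and the median was 11.49 (93.2nd percentile). The lung chemokine Cxcl15 (14.11, 14.08 and 14.29), the protease Ctsh, which trims the surfactant protein precursors (13.94, 13.96 and 14.44), the lamellar body lipid pump Abca3 (14.14, 13.99 and 14.07) and the phosphate carrier Slc34a2 (13.92, 14.25 and 13.30) led the list. Egfl6, a secreted growth-factor-like protein, was the exception at 6.23, 7.28 and 4.64. It was detected in pools 1 and 2 and on no array of pool 3.

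All 16 type I cell genes were detected on all 9 arrays, with a median of 12.17 (96.3rd percentile). Ager, the receptor by which type I cells are best known in lung, read 14.40, 14.46 and 14.42. Emp2, a membrane protein of caveolae (13.54, 13.58 and 13.81), Sec14l3, a lipid carrier (13.04, 13.17 and 13.37), and Pdpn, a surface mucin (13.04, 13.04 and 13.20), followed. The medians of type I and type II genes were thus both above the 93rd percentile, and Cyp2b10, at 6.20 ± 0.40, was the dimmest type I gene.

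Airway cells were unequal. Club cell genes had a median of 11.72 (93.6th percentile), led by Scgb1a1 (14.71, 14.93 and 14.96), the carbonyl reductase Cbr2 (13.41, 13.72 and 13.83), the xenobiotic oxidase Cyp2f2 (12.50, 12.87 and 13.32) and haptoglobin, Hp (12.16, 12.28 and 13.14). Each of these 4 was lowest in pool 1. Of 8 club cell genes measured, Bpifa1, an antimicrobial protein of the upper airways, was detected on no array. Ciliated cell genes were dimmer, with a median of 8.54 (67.9th percentile) although 19 of 21 were detected on all 9 arrays. Dynlrb2, a dynein light chain (12.04 ± 0.15), the radial spoke proteins Rsph1 (11.60 ± 0.072) and Rsph4a (10.21 ± 0.25), and Cdhr3, a cadherin of ciliated cells (9.81 ± 0.11), were the brightest, and the outer arm dynein Dnah9 was undetected. Foxj1, the master regulator of motile cilia, named after its values were seen, was itself dim, at 6.46, 6.87 and 6.70.

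Neuroendocrine and basal cells left little signal. Of 11 neuroendocrine genes, 4 were detected on all 9 arrays and 5 on none, the granule proteins Chga, Chgb and Scg2 and the prohormone convertase Pcsk1 among the undetected. Ddc, which makes dopamine and serotonin from their precursors, was the exception at 10.60, 10.50 and 10.06. The other 3 on all 9 arrays were the synaptic vesicle protein Syp (6.72 ± 0.46), Uchl1 (5.79 ± 0.027) and Resp18 (5.77 ± 0.14). Among the 6 basal cell genes, Krt15 (9.24 ± 0.16), the glycerol channel Aqp3 (6.34 ± 0.18) and Krt14 (5.75 ± 0.34) were detected on all 9 arrays and Ngfr (5.33 ± 0.14) on 6. The defining pair, Trp63 and Krt5, were undetected.

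General epithelial genes had a median of 10.46 (85.7th percentile), with 17 of 18 detected on all 9 arrays. Nkx2-1, the transcription factor that defines lung epithelium, read 13.60, 13.52 and 13.15, so the labelled tissue was borne out by its own marker. Krt8 (12.64, 12.58 and 12.60), Cdh1, the epithelial cadherin (12.25, 12.59 and 11.69), and Cldn3, a tight junction protein (11.61, 11.61 and 12.11), followed. Fluid handling genes, with which the lung moves from secreting to absorbing liquid around birth, were detected on all 9 arrays in 15 of 15 cases (median 10.52). The water channel Aqp1 (13.85 ± 0.20), the chloride cotransporter Slc12a2 (13.40 ± 0.17) and the sodium pump subunits Atp1b1 (13.07 ± 0.26) and Atp1b3 (12.85 ± 0.089) were the brightest of them.

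**Figure D2:**
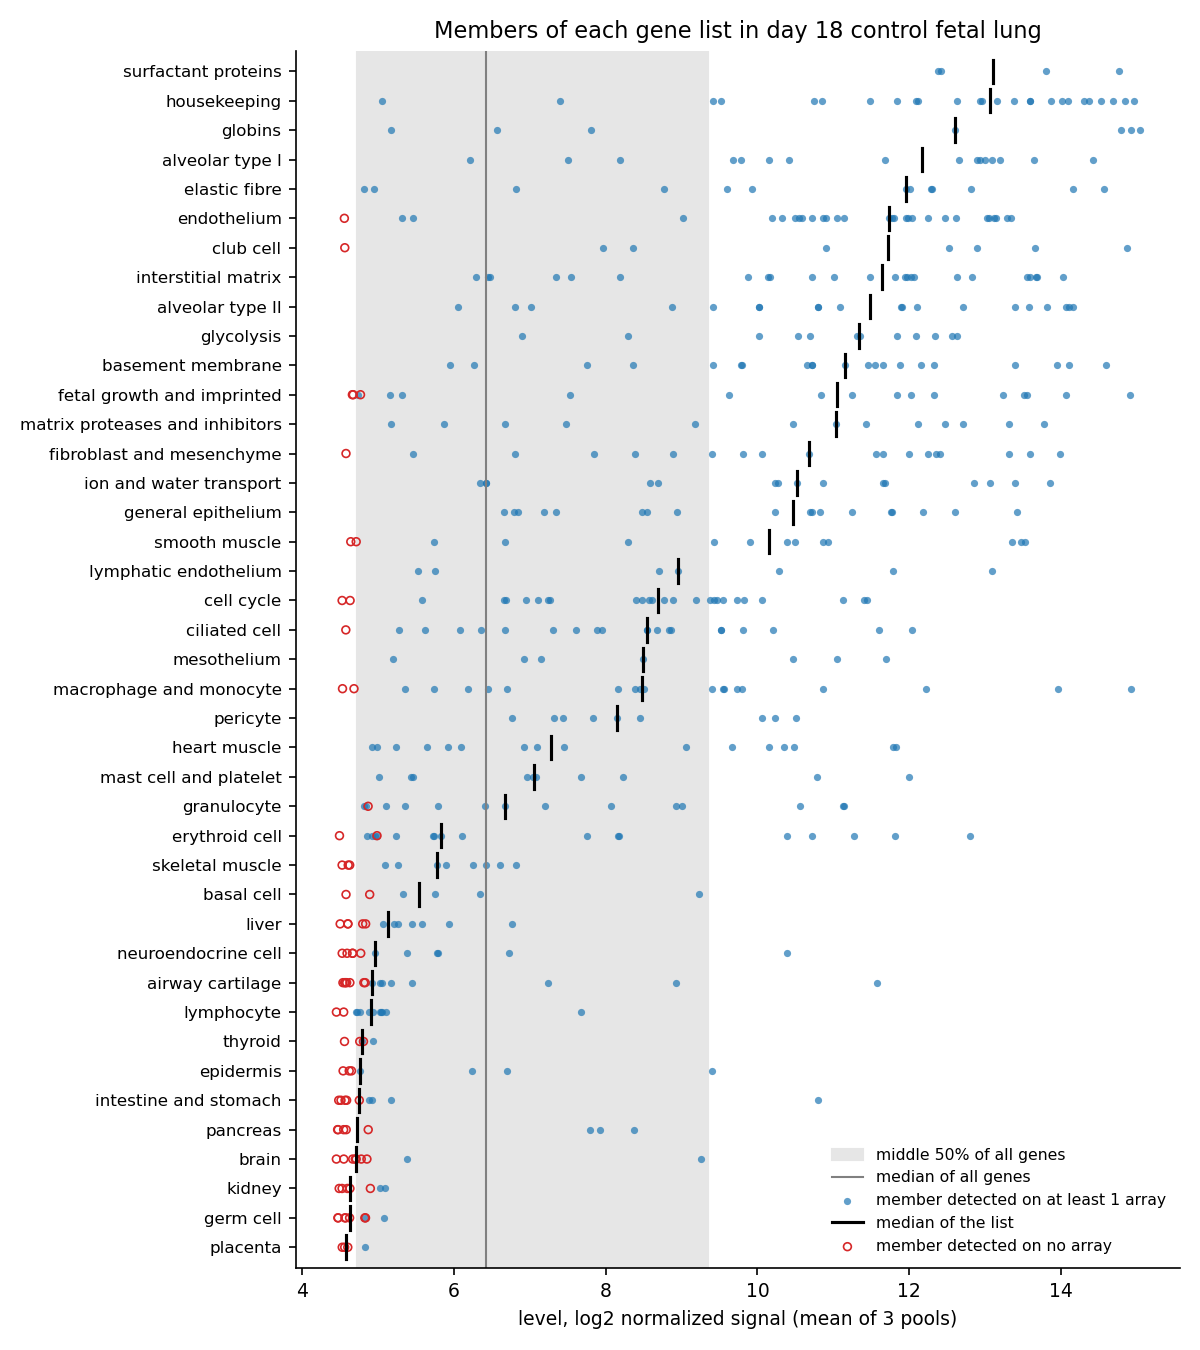
Level (log2 normalized signal, mean of 3 pools) of every measured member of 41 gene lists, 1 row a list, with lists in order of their median (black bar). Blue points were detected on at least 1 of the 9 arrays and red circles on none, and the grey band holds the middle 50% of all genes, from 4.72 to 9.34, so that surfactant, housekeeping and globin lists are seen at the top and placenta, germ cell and kidney lists at the bottom.

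The endothelium was among the brightest cell types. Its 29 genes had a median of 11.74 (94.8th percentile), and 26 were detected on all 9 arrays. The endothelin receptor Ednrb (13.40, 13.35 and 13.30), the endothelial cadherin Cdh5 (13.20, 13.30 and 13.36), Ramp2, the partner of the adrenomedullin receptor (12.91, 13.07 and 13.46), and the secreted Egfl7 (13.04, 12.78 and 13.55) led it. S1pr1, a lipid receptor that is abundant in endothelium, was detected on no array. Lymphatic genes reached a median of 8.95 (71.6th percentile), led by Pdpn, which type I cells share. After it came the hyaluronan receptor Lyve1 (11.79 ± 0.34), the chemokine Ccl21a (10.29 ± 0.61) and Reln (8.95 ± 0.15).

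Mesenchymal genes had a median of 10.69 (87.7th percentile), with 17 of 19 on all 9 arrays. The methyltransferase Inmt (13.88, 13.86 and 14.23), the soluble guanylate cyclase subunit Gucy1a1 (13.65, 13.60 and 13.52), Limch1, which binds actin and myosin (13.41, 13.32 and 13.21), and the receptor Pdgfra (12.47, 12.49 and 12.24) led, and Gli1, a target of hedgehog signalling, was undetected. Smooth muscle genes divided: Acta2 (13.52 ± 0.15), Tpm1 (13.47 ± 0.15), Mylk (13.35 ± 0.21) and Smtn (10.93 ± 0.36), all parts of the contractile apparatus, were bright, while Cnn1 and Synpo2 were undetected on all 9 arrays. Pericyte genes were all detected, at a median of 8.15, with the mitochondrial protein Higd1b (10.51 ± 0.36), the receptors Pdgfrb (10.23 ± 0.24) and Notch3 (10.05 ± 0.31), and the channel Trpc6 (8.45 ± 0.35) first. Mesothelium, the cell layer over the lobe, had a median of 8.49, led by mesothelin, Msln (11.69 ± 0.18), and the uroplakins Upk1b (11.05 ± 0.23) and Upk3b (10.47 ± 0.41), with Gpm6a next (8.49 ± 0.97).

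Airway cartilage was nearly silent in this lobe. Of its 15 genes, 3 were detected on all 9 arrays, namely the matrilin Matn4 (11.58 ± 0.084), the link protein Hapln1 (8.93 ± 0.23) and the collagen chain Col9a2 (7.24 ± 0.23), and 7 on none, among them Col9a3, Comp, Matn1 and Matn3. Col9a1 came next, at 5.85, 5.74 and 4.75. Heart muscle genes stood higher, with 11 of 16 on all 9 arrays and a median of 7.27 (56.9th percentile). The cardiac actin Actc1 (11.84, 11.86 and 11.78), the atrial light chains Myl4 (11.56, 11.61 and 12.20) and Myl7 (10.06, 10.26 and 10.73) and the heavy chain Myh6 (10.11, 10.21 and 11.13) were plain in every pool. In mice cardiac muscle reaches along the pulmonary veins. Skeletal muscle genes were dim, with a median of 5.77, Mylpf (6.82 ± 0.27), Myh8 (6.60 ± 0.26), Ckm (6.42 ± 0.064) and Acta1 (6.25 ± 0.29) the highest, and Myod1, Myh1 and Tnnc2 undetected.

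Matrix genes were bright as a class by their brightest probes, and the interstitial and elastic fibre lists stood lower by the median over detected probes. The interstitial list had a median of 11.65 (94.4th percentile), 23 of 24 genes being detected on all 9 arrays. The microfibrillar collagen chain Col6a1 (13.87, 13.85 and 14.35), Mgp, an inhibitor of calcification (13.59, 13.45 and 14.03), the proteoglycan Bgn (13.65, 13.56 and 13.83) and Sparc, a collagen-binding glycoprotein (13.46, 13.43 and 13.90), came first, and each was highest in pool 3. The fibrillar collagens, named after their values were seen, went apart there: Col3a1 read 13.35, 13.71 and 11.43, Col1a2 read 12.49, 12.84 and 10.72, and Col1a1 read 11.69, 11.45 and 12.77. Pool 3 was thus the lowest for the first pair and the highest for Col1a1, each by its brightest probe, although Col1a1 and Col1a2 form the same trimer. Elastic fibre genes had a median of 11.96 (95.9th percentile). Elastin itself, Eln, read 14.57, 14.63 and 14.50, its microfibril partner Mfap4 read 14.01, 13.79 and 14.66, the cross-linking oxidase Lox read 13.10, 12.62 and 12.74, and Loxl1, a related oxidase, read 12.29, 12.28 and 12.33. Of these, Mfap4 and Lox (adjusted p = 0.00051) differed between pools by limma's F test, described with the pools. Eln (adjusted p = 0.23) and Loxl1 (adjusted p = 0.72) did not pass it.

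All 21 basement membrane genes were detected on all 9 arrays, with a median of 11.15 (91.4th percentile). The network-forming collagen chains Col4a1 (14.58, 14.41 and 14.79) and Col4a2 (13.70, 13.59 and 14.57), the heparan sulfate proteoglycan agrin, Agrn (14.17, 14.03 and 14.13), and the laminin chain Lamc1 (13.45, 13.45 and 13.29) led. Among proteases and their inhibitors (median 11.04), the collagen chaperone Serpinh1 (13.78 ± 0.073), the inhibitor Timp3 (13.32 ± 0.066) and the metalloproteases Mmp2 (12.71 ± 0.38) and Mmp14 (12.47 ± 0.040) were the brightest. No member of the 3 other matrix lists was undetected either.

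The blood of the lobe was seen mainly through adult globin genes. Adult globins were at the ceiling: Hbb-bs, Hbb-bt (14.88, 15.01 and 14.89) and Hba-a1 (14.70, 14.80 and 14.89). Hbb-b2, an older name for an adult beta gene, had a probe at 12.44, 12.90 and 12.49. The globins of the yolk sac stage were far lower, with Hbb-y at 8.15, 7.54 and 7.73, the alpha-like Hba-x at 6.72, 6.15 and 6.83, and Hbb-bh1 at 4.99, 5.48 and 5.03, which was detected on 5 of 9 arrays. Near-identical globin copies can share a probe, so the split between them is uncertain. Erythroid genes other than globins had a median of 5.83 (45.3rd percentile), under that of all genes. Alas2, the first enzyme of heme synthesis in red cells (12.50, 12.79 and 13.11), the mitochondrial iron carrier Slc25a37 (11.74, 11.67 and 12.05), the anion exchanger Slc4a1 (11.20, 11.42 and 11.20) and the transferrin receptor Tfrc (11.07, 10.83 and 10.27) were bright. Hemgn and Epb42 were undetected.

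Among leukocytes the macrophage list had a median of 8.48 (67.3rd percentile), with 17 of 20 genes on all 9 arrays. Lyz1 (14.93 ± 0.082) and Lyz2 (13.93, 14.36 and 13.61) topped it, and lung epithelium makes lysozyme too, so they mark more than macrophages. Near-identical sequences may also share these 2 genes' probes. Laptm5, a lysosomal protein of blood cells, read 12.22 ± 0.11 and Mpeg1, a pore-forming protein of macrophages, 10.86 ± 0.48. Cybb, an oxidase subunit, and Siglecf, the surface marker of mature alveolar macrophages, were undetected. Granulocyte genes had a median of 6.67 (52.0th percentile), led by S100a9 (11.14 ± 0.26), S100a8 (11.13 ± 0.28), lipocalin Lcn2 (10.56 ± 0.49) and lactoferrin Ltf (8.78, 8.98 and 9.24), with the primary granule protease Ctsg undetected. Mast cell and platelet genes had a median of 7.06, headed by the receptor Kit (11.99 ± 0.23), platelet factor Pf4 (10.78 ± 0.52), the mast cell protease Cpa3 (8.22 ± 0.46) and Ppbp (7.68 ± 0.35). Lymphocyte genes were close to background, with a median of 4.91 (32.4th percentile): Cd79b, a chain of the B cell receptor (7.56, 7.71 and 7.76), was detected on all 9 arrays, Cd3d (5.10 ± 0.14), Rag1 (5.05 ± 0.27) and Cd3e (5.03 ± 0.18) on some, and Cd8a and Gzmb on none.

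**Figure D3:**
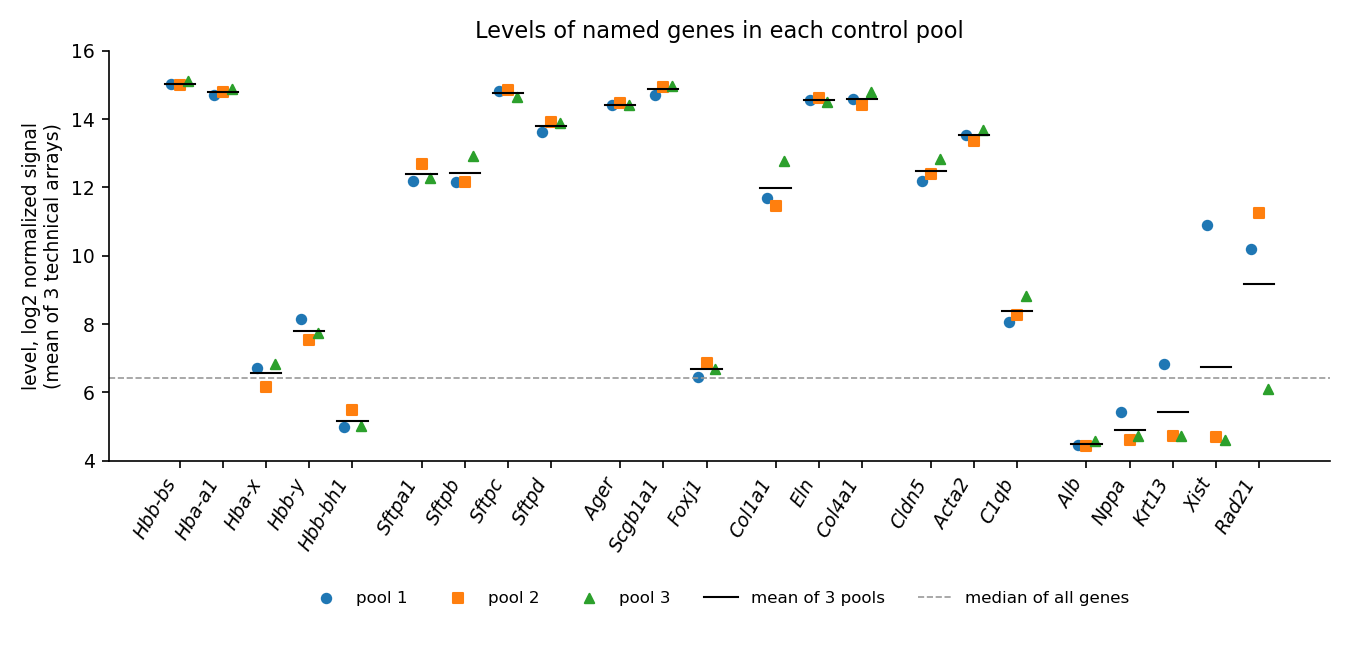
Levels (log2 normalized signal) of 23 named genes in each control pool, each point the mean of 3 technical arrays and the bar the mean of 3 pools, with the median of all genes (6.42) dashed. Adult globins, Sftpc, Ager, Scgb1a1, Eln and Col4a1 stand above 14 with little spread, Alb lies below 5, Xist is high in pool 1 alone and Rad21 is low in pool 3.

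Housekeeping genes were among the brightest lists (98.7th percentile, median level 13.06), and 25 of 26 were detected on all 9 arrays. Eef1a1, Fth1, Tmsb4x and Ppia, a prolyl isomerase (14.53 ± 0.038), were the first 4. The list was not uniform, since Sdha, a subunit of succinate dehydrogenase chosen here after its values were seen, read 4.86, 5.79 and 4.50 and was detected on 3 arrays. Glycolytic genes were all detected, at a median of 11.33 (92.6th percentile). Lactate dehydrogenase Ldha (12.63 ± 0.15), Tpi1 (12.57 ± 0.31), Pkm (12.34 ± 0.25) and Gapdh (12.09 ± 0.46) led them.

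The 62 cytosolic ribosomal protein genes had a median of 13.47 (99.2nd percentile), and 54 were detected on all 9 arrays. Yet Rpl6, Rps23, Rpl17 and the variant Rpl39l were detected on none. Each of them had 1 probe, so a gene without RNA and a probe that does not read its RNA cannot be told apart. These 4 were picked after their values were seen. Of the 8 mitochondrially encoded genes 7 were detected on all 9 arrays (median 14.06). The 16 ATP synthase genes were all detected (median 12.06), as were 42 of 44 complex I genes (median 10.96), 22 of 25 cytochrome c oxidase genes (median 9.89), 72 of 76 mitochondrial ribosomal proteins (median 9.79), 42 of 49 proteasome genes (median 9.73) and 41 of 51 translation initiation factors (median 10.53).

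Growth showed in 2 lists. Fetal growth and imprinted genes had a median of 11.04 (90.5th percentile), with Dlk1 (14.91, 14.94 and 14.88), the growth factor Igf2 (14.16, 14.07 and 13.97), Mest (13.75, 13.71 and 13.19) and the growth inhibitor Grb10 (13.62, 13.41 and 13.50) first. Plagl1, Peg10 and Lin28b, a blocker of let-7 maturation, were undetected. Cell cycle genes had a median of 8.69 (69.2nd percentile), with 21 of 26 detected on all 9 arrays. The replication helicase subunits Mcm6 (11.83, 11.69 and 10.80) and Mcm4 (11.63, 11.47 and 11.10), the microtubule regulator Stmn1 (11.99, 12.23 and 9.18) and the nucleotide reductase subunit Rrm1 (10.01, 10.11 and 10.08) were the brightest, and the mitotic genes Bub1 and Ccnb2 were undetected. Stmn1 was lower in pool 3 by more than 2 log2 units, as the paragraphs on the pools describe.

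The undetected genes held most of the sensory receptor families. Of 1078 olfactory receptor genes, 946 (87.8%) were detected on no control array, as were 158 of 173 vomeronasal receptors (91.3%), 29 of 32 bitter taste receptors (90.6%), 22 of 23 prolactin family genes (95.7%), 38 of 42 keratin-associated proteins (90.5%), 34 of 42 beta-defensins (81.0%), 18 of 24 kallikreins, 10 of 13 alpha interferons (76.9%), 7 of 9 Rhox genes (77.8%) and 5 of 6 major urinary proteins (83.3%), beside 29.0% of all genes. Only 9 genes of these 10 families were detected on all 9 arrays. The brightest was the kallikrein Klk8 (9.94, 9.98 and 10.30), followed by Klk13 (6.99 ± 0.55) and Olfr802 (6.81, 6.95 and 6.35), named after their values were seen. These families and the Cyp2 family hold close relatives, so a probe may read more than 1 member. The Cyp2 genes had 29 of 43 undetected, but Cyp2f2 (12.90 ± 0.41) and Cyp2s1 (10.60 ± 0.39), taken as its brightest members, were well above the median gene.

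Markers of other organs were mostly at background. All 3 undetected placental genes (Ctsq, Prl2c2 and Tpbpa) lay between 4.53 and 4.60, and the remaining one, Psg16, was detected on 1 array. For liver, Alb, Apoa1, Apoa2 and Fgb were among 5 of 12 undetected genes. Ahsg, a plasma glycoprotein, was the one liver gene on all 9 arrays (6.95, 7.40 and 5.93), with Afp (5.93 ± 1.17), Ttr (5.57 ± 0.35) and Fgg (5.45 ± 0.23) after it. Of 7 kidney genes 5 were undetected (Aqp2, Umod, Nphs1 and Kap among them), and the highest were Slc12a1 (5.09 ± 0.070) and Slc22a6 (5.02 ± 0.12). Of 9 germ cell genes 7 were undetected, including Prm1, Tnp2, Ddx4 and Dazl, with Tnp1 the highest at 5.07 ± 0.041. For thyroid, Tg, Slc5a5 and Foxe1 were undetected, and Pax8 (4.93 ± 0.058) and Tshr (4.78 ± 0.32) were on 1 array each.

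A few single genes stood out of silent lists. In the stomach and intestine list, 5 of 9 genes, including Lct, Cdx2, Mep1a and Fabp2, were undetected and Vil1 (5.16 ± 0.15), Gkn1 (4.92 ± 0.21) and Sis (4.88 ± 0.061) were at most partly detected. Cblif, the gastric intrinsic factor that binds vitamin B12, nevertheless read 10.60, 10.87 and 10.90, with all 3 pools far above the median gene. In the pancreas list Ctrb1, Cela2a, Ins2 and Prss2 were among 5 of 8 undetected genes, while the elastase Cela1 (8.31, 7.98 and 8.84), the amylase Amy2a5 (7.93 ± 0.096) and the carboxypeptidase Cpa1 (7.79 ± 0.32) were detected on all 9 arrays. Of 9 brain genes 7 were undetected, among them Gfap, Slc1a2, Tbr1 and Slc17a7, and Mbp, the myelin protein, which has transcripts outside myelin as well, read 9.21, 9.15 and 9.40, with Gad1 next at 5.38 ± 0.18. In the epidermis list Krt10 (9.40 ± 0.034), Lor (6.70 ± 0.69) and Ivl (6.24 ± 0.16) were detected on all 9 arrays and Krt1, Krt2 and Dsg1a on none.

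Hox genes, whose order along each cluster follows the head to tail axis of the embryo, were detected in part. Of 38 measured, 13 were on all 9 arrays and 20 on none. The brightest were Hoxa5, a gene known to be needed for lung development in mice (11.61, 11.64 and 11.47), Hoxb5 (10.86 ± 0.15), Hoxb2 (10.01 ± 0.030) and Hoxb4 (10.29, 9.59 and 9.50). All 4 belong to the A or B cluster. Of the C and D clusters, Hoxd8 alone was on all 9 arrays (5.74 ± 0.11), and 5′ members such as Hoxa10, Hoxa11, Hoxd12, Hoxd13 and Hoxc12 were undetected. Hoxa13, the most 5′ gene of its cluster, was nevertheless on all 9 arrays at 5.97 ± 0.12. These Hox genes, and the keratins that follow, were named after their values were seen. Of 45 keratins, Krt8, Krt7, Krt18 and Krt19, of simple epithelia, were the 4 brightest, Krt10 and Krt15, of stratified epithelia, came next, and 22 were undetected. The remaining families were closer to the whole array, with 37 of 88 Kcn potassium channels, 98 of 356 solute carriers and 59 of 331 Zfp zinc finger genes undetected.

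**Figure D4:**
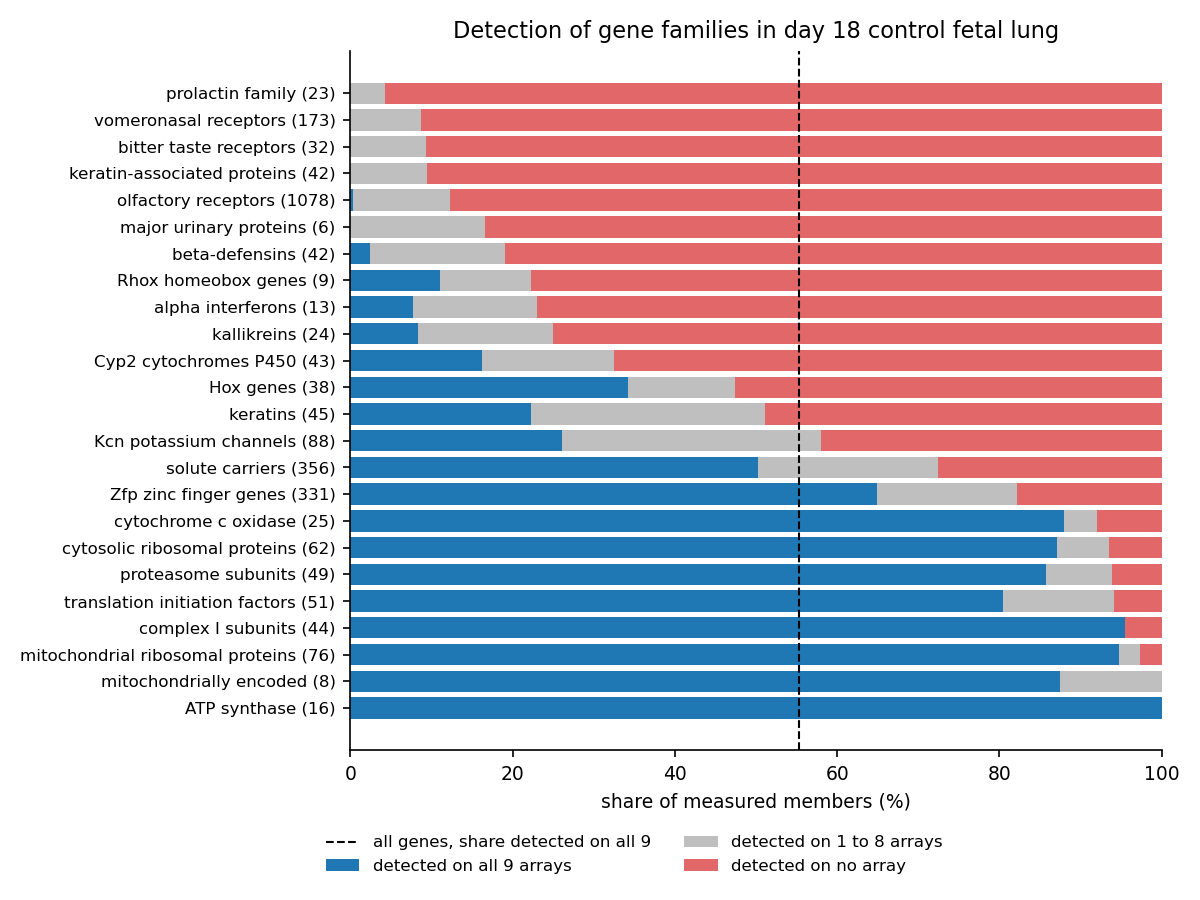
Share of measured members (number in brackets) of 24 gene families detected on all 9 control arrays (blue), on 1 to 8 (grey) and on none (red), with the 55.3% of all genes detected on all 9 as a dashed line. Sensory receptor, prolactin and keratin-associated families are nearly all red, and ATP synthase, complex I and mitochondrial ribosomal families nearly all blue.

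The 3 pools were compared with limma's moderated F test, with the technical arrays as residual, over 21538 probes detected on at least 6 of the 9 arrays. It asks whether these pools differ by more than repeat arrays of 1 pool, and says nothing about a condition. It called 14486 probes (67.3%) at an adjusted p under 0.05, or 7510 of 11457 genes by their brightest probe (65.5%). The median SD between pools, taken over means of 3 arrays, was 0.24 per probe. The median SD within pools, taken over single arrays, was 0.12, so they are not directly comparable. By pairs, pools 1 and 2 differed at 2936 probes (13.6%), pools 1 and 3 at 13171 (61.2%) and pools 2 and 3 at 13353 (62.0%). Most calls thus rest on pool 3, and without it the median SD between pools was 0.11. At the level of genes, 3112 (27.2%) of the 11457 were called with pool 3 lowest and 3893 (34.0%) with pool 3 highest, and 3733 (32.6%) were called with pools over 1.5-fold apart. Pools 1 and 2 alone differed in 1286 genes (11.2%), of which 757 (6.61%) were higher in pool 2 and 529 (4.62%) in pool 1.

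Against the 65.5% of all genes tested, lists were called in shares below, near and above it. Near or above it were 16 of 20 type II genes, 12 of 16 type I genes, 20 of 27 endothelial genes and 12 of 18 macrophage genes. The share was lower for housekeeping (13 of 25), elastic fibre (5 of 11) and cytosolic ribosomal genes (26 of 56). Other lists below it included fetal growth (6 of 12), matrix proteases and inhibitors (7 of 12), globins (3 of 6) and neuroendocrine genes (2 of 5). It was higher for interstitial matrix (22 of 24) and glycolysis (11 of 12). Direction differed between lists. Of all called genes, pool 3 was highest in 51.8% and lowest in 41.4%. Of the called genes of a list, it was highest in 11 of 12 for type I cells, 15 of 20 for endothelium and 7 of 8 for smooth muscle, and lowest in 13 of 19 for the cell cycle. These lists are small, and no list was tested against another.

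Spread was ranked among genes without a clone or model name whose brightest probe was detected on all 9 arrays. The detection limit leaves out Xist (SD 3.61). The 10 genes with the largest spread were all low in pool 3. Rad21, a subunit of the cohesin ring, read 10.19, 11.25 and 6.11 (SD 2.71, adjusted p = 1.1e-08). Ssb, the La protein that binds new small RNAs, read 9.35, 10.65 and 5.66, and the vesicle protein Mal2 read 8.85, 10.04 and 5.61. Pools 1 and 2 lay within 1.5 log2 units of each other for each of these, and pool 3 lay more than 3 below both. Slc25a4, the mitochondrial ADP/ATP carrier, fitted the same description in part, at 8.22, 9.71 and 5.24. Hspa5, the chaperone of the endoplasmic reticulum, Pcnp, the protease Adam10, the surface glycoprotein Cd24a, Vps4b and Spcs2 made up the 10, with SDs from 2.14 to 2.26. Ranking by the gap of 1 pool to its nearest neighbour added Ktn1, Lims1 and Rbm14, all with pool 3 lowest. The least variable of the 500 brightest genes, again without clone or model names, were Prnp, the prion protein (12.62, 12.63 and 12.63), Rplp1, Nsa2, Fth1, Klhdc2, Tmsb4x, Rps24, Tbca, Mlf2 and Tmem184b, with SDs between 0.0040 and 0.012. The 500 brightest genes had a median SD of 0.12 beside 0.22 for all tested genes, and 269 of them (53.8%) were called.

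The shift of pool 3 was set against the pools numbered 3 in the other groups. Relative to the mean of pools 1 and 2, 1738 of the 21538 probes were at least 2-fold lower in control pool 3 and 773 at least 2-fold higher. Of the 1738, 1725 (99.3%) were also lower in the third pool of the in vitro-derived group and 1710 (98.4%) in that of the in vivo-derived group, where 37.1% and 43.2% of all tested probes were lower. At least 2-fold lower there were 67.5% and 65.5% of the 1738. The 773 higher probes were also higher in 94.6% and 84.9% of cases, but at least 2-fold higher in 3.88% and 10.7%. Rad21, for example, was shifted by -4.61 in the control, -3.59 in the in vitro-derived group and -3.42 in the in vivo-derived group. Probes of 1 gene did not always share the shift. Of 3914 genes with several probes detected on all 9 arrays, 879 (22.5%) had probes that differed by at least 2-fold in it, and of 498 genes with a probe at least 2-fold lower, 384 had another that was less than 0.25 lower on the log2 scale. Pcnp shows this, with 1 probe shifted by -3.79 and the other 2 by 0.35 and -0.08. What pools numbered 3 share was not tested, and the labels name no slide or day.

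**Figure D5:**
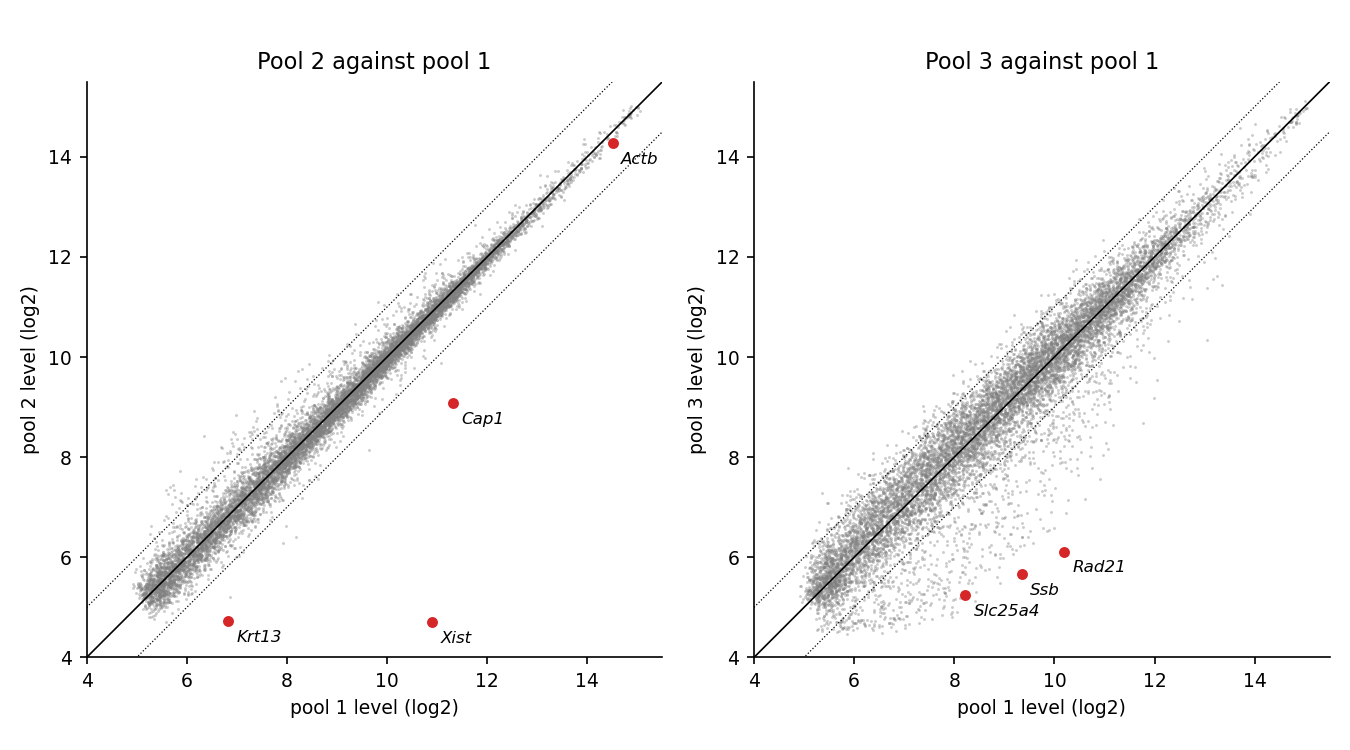
Level (log2 normalized signal, mean of 3 technical arrays) in pool 2 (left) and pool 3 (right) against pool 1, 1 grey point for each of the 11457 tested genes, with equality as a solid line, 2-fold differences dotted and named genes in red whether tested or not. Pools 1 and 2 lie close to the line except for genes such as Cap1 and Xist, while the right panel shows a tail of genes lower in pool 3, Rad21 among them.

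Between pools 1 and 2, some genes, picked after their values were seen, lay well off the line. Higher in pool 2 were Nfkb2, a subunit of NF-kappa-B (5.58 and 7.35 in pools 1 and 2), and the fatty acid receptor Cd36 (7.89 and 9.52). The interferon-induced Ifit3 (8.17 and 9.52) and the class I molecule H2-Q6 (6.96 and 8.46) were higher there too. Higher in pool 1 were Cap1, a regulator of actin turnover (11.32 and 9.07), the acute phase protein Saa3 (9.64 and 8.15) and Psca, a surface antigen of epithelia (7.99 and 6.62). All 7 differed at an adjusted p under 0.05 in the test of these 2 pools. 10 genes were detected on all 3 arrays of pool 1 and on none of the others, led by Xist and by Krt13, a keratin of stratified mucosa (6.83 in pool 1 and 4.73 in pools 2 and 3). Its usual partner Krt4 read 6.80, 4.72 and 5.07. The heart hormone Nppa (5.42, 4.60 and 4.72) was among the 10 as well, although the other bright heart genes, Actc1, Myl4, Myh6 and Myl7, were not highest in pool 1. Pool 2 had 30 such genes, led by Ubash3b and the chemokine Ccl5 (4.77, 6.42 and 4.83), and pool 3 had 74, led by Tlr8 and Cabin1. In the other direction, 109 genes were detected on all 3 arrays of pools 1 and 2 and on none of pool 3.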

How the data were processed

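Lungs were profiled on Illumina bead arrays, and 9 control arrays, as 3 pools of 3 technical arrays, are described. The intensity values are mean bead signals that the authors deposited without normalization. A detection p-value comes with each signal, per the file headers. The scanner software was not given in the sources used here. A processed intensity matrix was deposited too, whose log2 values served as an alternative. Its columns had medians of 138.5 to 138.6 and kept the order of the raw signals on a linear, uncentred scale.

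Background correction, quantile normalization and log2 conversion of all 27 arrays used neqc (limma 3.58.1, R 4.3.3, offset 16). Of 45281 probes, 34885 had 1 symbol in the platform annotation, 18 several and 10378 none, and 34807 matched RefSeq by gene identifier. Promoters came from RefSeq (GRCm38.p6). Some genes of the lists are not analysed here. Shares of summed signal are linear signal after subtraction of the offset, over named genes.

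Pools were compared with limma's lmFit and eBayes (6 residual degrees of freedom), adjusted by the Benjamini-Hochberg method over 21538 probes. In simulated data with known shifts for the comparison of the 3 pools the test called most of the larger shifts and under 50% of the smaller ones. The genes, lists and tests were chosen with earlier results of these data known. Genes named are the 30 brightest, the first 4 of each list (all where it has 6 or fewer), up to 4 undetected ones, and those of largest and smallest spread between pools, and any other name was chosen after its values were seen. Families were matched by symbol.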

Additional observations from a re-analysis of the deposited data

How the results depend on the processing

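The order of the brightest genes changed little with the normalization: of the 100 brightest, 100 were shared with the authors' matrix on the log2 scale, 99 with median-scaled raw signal and 99 with neqc on the 9 control arrays alone. The choice of probe mattered more, since 71 were shared when a gene took the median over its detected probes. Lyz1 then went from rank 5 to 32 and Dlk1 from 7 to 35, and the fetal growth list moved by 17.1 percentile points. The elastic fibre list fell from a median percentile of 95.9 to 79.6, interstitial matrix from 94.4 to 85.5 and general epithelium from 85.7 to 79.5. Other lists rose, such as type II cells from 93.2 to 95.2 and ion and water transport from 86.2 to 90.2. The median move over the 42 lists was 1.79 points. Leaving out a pool left 95 to 98. Of 42 lists, 27 had a median percentile over 50 under every one of these settings. The number of genes detected on every array went from 10547 to 9880 at a detection p under 0.01 and ranged from 10615 to 10878 without 1 pool, and that of genes detected on none went from 5525 to 7087 and ranged from 5744 to 6043. The count of 14486 probes that differ between pools was 13171 to 15777 under the other normalizations, array weights, either filter and without pool 1 or pool 2, but 2936 without replicate 3 and 7997 when pools also had to be more than 1.5-fold apart. Leaving out a replicate in turn thus gave 2936 to 13353. As a share of probes tested, the calls were 67.3% in the main test but 33.9% (15355 of 45281) with no filter on dim probes. The 7997 probes over 1.5-fold apart (37.1%) became 3950 (18.3%) in the authors' matrix and 4401 (20.4%) in median-scaled raw signal. The median SD between pools of 0.24 was 0.14 in the authors' matrix, where the cause was not tested, and 0.11 to 0.27 without 1 replicate, the lowest being without replicate 3. With 0.16, median-scaled raw signal was between these. No paired analysis was possible because 1 group is described and no groups are compared. Detection p sets the limit below which levels have no order, and with 3 pools no pool's value could be tested as standing apart.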
